A study of Sus scrofa with 14 samples.

Results

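Circular RNAs (circRNAs) of zinc finger genes in embryonic pig brain were taken from both deposited circRNA tables as the lines with 1 host gene name that starts with ZNF, ZBTB, ZKSCAN, ZSCAN, ZMYM, ZMYND, ZC3H, ZCCHC or ZFP, other than ZFPM2. The rule found 86 circRNAs of 41 host genes among the 6720 circRNAs of the series. A table of forebrain and cortex listed 69 of them among 5585 circRNAs (36 hosts), a table of 5 brain regions listed 52 among 3967 (26 hosts), and 35 stood in both. No host name began with ZFP, and the membership rests on gene names only, so it groups proteins of several unrelated fold classes.

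The samples were 14 libraries of dissected fetal pig brain with 1 library in each group. They were hippocampus, cerebellum, brain stem and basal ganglia at E115 and E60 (E stands for embryonic day), cortex at those days and also at E42, E80 and E100, and forebrain at E23. The earliest stage is forebrain rather than cortex, so stage and tissue cannot be told apart at that step. RNA above 200 nt, depleted of ribosomal RNA, was sequenced, and a circRNA was counted by the reads that cross its backsplice junction, where the end of an exon is spliced back to the start of the same or an earlier one. Libraries held 9.67 to 58.8 M (1e6) reads, and a level is given as backsplice reads per M library reads (RPM). With no replicates, intervals in this text are 95% exact intervals of counting error only.

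Zinc fingers are small folds held together by a zinc ion. In the ZNF, ZBTB, ZKSCAN and ZSCAN proteins they mostly bind DNA, and many ZNF proteins carry a KRAB domain that recruits the co-repressor TRIM28 and the histone methyltransferase SETDB1. The CCCH fingers of ZC3H proteins and the zinc knuckles of ZCCHC proteins mostly contact RNA, while MYM and MYND domains bind other proteins. Zinc finger genes such as ZNF292, ZNF609 and ZKSCAN1 are known in human cells as hosts of circRNAs, which accumulate in brain because they lack free ends and resist exonucleases.

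Most zinc finger hosts gave few circRNAs. Of the 41 hosts, 25 had 1 circRNA over both tables together, 6 had 2, 5 had 3 and 5 had 4 or more. ZC3H14, a poly(A)-binding protein, had 11, ZMYM4, a MYM-type protein, had 8, ZCCHC11, the terminal uridylyltransferase also called TUT4, had 7, and ZMYND8, a reader of chromatin marks, and ZNF827, a protein known in human cells to bring the NuRD complex to telomeres, had 4 each. ZBTB11, ZCCHC6, ZNF280C, ZNF280D and ZNF568 had 3 each. In the forebrain and cortex table a zinc finger host had 1.74 circRNAs on average (35 hosts), against 2.06 for all 2173 named hosts, and 65.7% had only 1, against 54.8%. In the regions table the means were 2.04 for zinc finger hosts and 1.98 for all. Of the 11 circRNAs named for ZC3H14, 8 are on the minus strand and may belong to another gene, as described below. The regions table holds 7 of these, and the order of its 2 means rests on them. Counting only circRNAs with at least 5 reads gave 1.84 for zinc finger hosts and 1.74 for all in the cortex table, so the order there depended on the circRNAs with few reads.

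The circRNAs of 1 host often shared a junction end. Among the 16 hosts with more than 1 circRNA, 44 of 61 circRNAs used a start or end that another circRNA of the host also used, in 13 of the hosts. The 3 circRNAs of ZBTB11, a BTB-domain transcription factor, all began at position 166909686 of chromosome 13 (build Sscrofa10.2, as all positions here), and all 4 of ZMYND8 shared an end with another. Elsewhere neighbouring circles met with little overlap. The 63667-bp circRNA of ZCCHC11 (chr6:147362290-147425956) and its 41722-bp circRNA (chr6:147425793-147467514), both on the minus strand, overlapped by 164 bp.

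ZC3H14 was the only zinc finger host with circRNAs on both strands. In the cortex table its 3 plus-strand circRNAs lay within chr7:116968349-117004866 and held 42 reads, and its 4 minus-strand circRNAs lay within chr7:117047645-117155315 and held 15. Over both tables the circRNAs named for ZC3H14 spanned 204328 bp. In the RefSeq gene order of Sscrofa11.1, a later build, the gene next to ZC3H14 on one side is PTPN21 and on the other EML5, and 0 lines of either table named them as a host. The minus-strand circRNAs may belong to another gene, and they were not assigned to one here.

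The genomic length between junction ends ran from 119 bp (ZNF704) to 96060 bp (ZNF283). The median was 5087 bp for zinc finger circRNAs and 9783 bp for all circRNAs of the cortex table, and 7658 bp for zinc finger circRNAs and 9525.5 bp for all in the regions table. Of zinc finger circRNAs in the cortex table, 16.4% spanned less than 1 kb, against 9.87% of all, and 4.92% spanned 40 kb or more, against 12.1% of all. The position of the ends relative to exons was not analysed here.

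Reads per library did not add up to the stated total in some lines, and results use only the lines where they did. These were 61 zinc finger circRNAs of 35 hosts among 4997 in the cortex table, and 51 of 25 hosts among 3776 in the regions table. The lines left out had little weight in the cortex table, 8 lines with 77 reads. In the regions table the only one was the ZNF292 circRNA of 2845 bp (chr1:62359384-62362228, plus strand), which states 302 reads while its libraries hold 293. Its E115 and E60 cortex reads were 21 and 68 there but 62 and 98 in the cortex table, where the line added up. The other 34 zinc finger circRNAs in both tables had the same cortex reads in each. In the regions table the headings of the host FPKM columns for cortex and hippocampus also go against the cortex table, as described with those values.

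Zinc finger circRNAs took a larger share of backsplice reads than of circRNAs in the cortex table. They held 1923 of 84090 reads, 2.29% (Clopper-Pearson interval 2.19% to 2.39%), and were 1.22% of the lines. In the regions table they held 750 of 42656 reads, 1.76% (1.64% to 1.89%), and were 1.35% of the lines. Without the ZNF292 circRNA of 2845 bp the cortex share was 1.79%. Reads were concentrated: this circRNA alone held 22.3% of the zinc finger reads in the cortex table, the top 3 held 50.4% and the top 10 held 80.8%. The median zinc finger circRNA had 5 reads, as did the median of all circRNAs.

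By family, the 27 ZNF circRNAs held 38.6% of the zinc finger reads in the cortex table, the 8 ZCCHC circRNAs 28.4%, the 7 of ZMYM4 17.8% and the 12 ZC3H circRNAs 12.3%. The ZBTB circRNAs held 32 reads, those of ZMYND8 16 and that of ZKSCAN1 9. In the regions table, which lacks the main ZNF292 line, ZMYM4 held 36.3%, the ZCCHC hosts 35.6% and the ZNF hosts 11.1%. The circRNA of ZSCAN12 had 2 reads there, both in the E60 cortex. Detection followed abundance: 9 of the 61 zinc finger circRNAs in the cortex table (14.8%) had at least 2 reads at every stage, against 8.35% of all, and 27 (44.3%) reached 2 reads in 1 library only, against 49.5% of all.

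The summed zinc finger level was highest at E42 and E60. From E23 on, the 6 libraries had 7.04 RPM (exact Poisson interval 6.37 to 7.75), 17.9 RPM (16.3 to 19.5), 17.7 RPM (16.01 to 19.6), 6.50 RPM (5.56 to 7.54), 5.11 RPM (4.49 to 5.79) and, at E115, 4.28 RPM (3.74 to 4.87). E42 and E60 do not differ beyond counting error, with a ratio of E60 over E42 of 0.993 (0.866 to 1.14), whereas all circRNAs together had a ratio of 1.26. At nearly equal depth, E80 had 0.364 times the zinc finger level of E42 (0.304 to 0.433), against 0.473 for all circRNAs. The E115 cortex had 0.241 times the level of the E60 cortex (0.204 to 0.285), against 0.267 for all circRNAs. The E115 cortex was also below the E23 forebrain, with a ratio of 0.608 (0.515 to 0.716), against 0.761 for all.

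As a share of circRNA reads, zinc finger circRNAs differed less between stages. In order of day the share was 2.48% (2.25% to 2.72%) in the E23 forebrain, then 2.78% (2.54% to 3.04%), 2.19% (1.98% to 2.42%), 2.14% (1.83% to 2.48%), 1.89% (1.66% to 2.14%) and, in the E115 cortex, 1.98% (1.74% to 2.25%). The interval at E42 lies above those of all later stages, and the intervals from E60 to E115 overlap. In bulk tissue, fewer cells of a type and less RNA per cell cannot be told apart in any of these values.

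**Figure D1:**
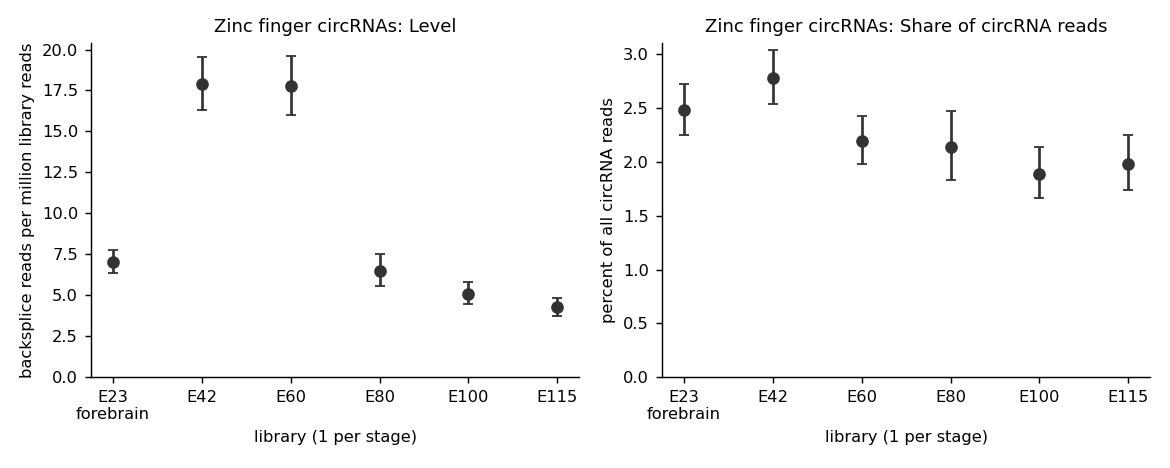
Summed level of zinc finger circRNAs (backsplice reads per M library reads, exact Poisson intervals) and their share of all circRNA reads (percent, exact Clopper-Pearson intervals) in 6 libraries ordered by embryonic day. The level is highest at E42 and E60, at 17.9 and 17.7 RPM, while the share stays between 1.89% and 2.78%.

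The ZNF292 circRNA of 2845 bp had the most reads. ZNF292 encodes a transcription factor with many zinc fingers, and human variants in it are linked to neurodevelopmental disorders. The circRNA had 89, 86, 98, 37, 56 and 62 reads from E23 to E115, or 1.51, 3.22, 4.58, 1.39, 1.15 and 1.15 RPM. It was highest at E60, and the E115 cortex had 0.251 times the level of the E60 cortex (exact conditional interval 0.180 to 0.348). Its share of all circRNA reads was 0.533%, 0.501%, 0.565%, 0.457%, 0.427% and 0.532% in the same order. All 6 share intervals overlap. A longer circRNA of the gene, of 28372 bp, had 4, 5, 3, 0, 8 and 2 reads and was 4.89% of the reads of this pair over all stages.

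The circRNA of 2794 bp from ZMYM4 (chr6:85062798-85065591, minus strand) had its lowest level in the E23 forebrain and its highest levels at E42 and E60. It had 17, 75, 71, 21, 46 and 43 reads from E23 to E115, or 0.289, 2.81, 3.32, 0.789, 0.948 and 0.796 RPM. The E60 cortex had 11.5 times the level of the E23 forebrain (6.69 to 20.8), and the E115 cortex had 0.240 times that of the E60 cortex (0.161 to 0.356). Its share of circRNA reads was 0.102% at E23 (0.0593% to 0.163%) and 0.437% at E42 (0.344% to 0.548%), intervals that do not overlap, and 0.369% at E115.

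The terminal uridylyltransferases ZCCHC11 (TUT4) and ZCCHC6 (TUT7) add uridines to RNA 3′ ends, among them those of let-7 precursors, and their circRNAs had different stage patterns. The ZCCHC11 circRNA of 41722 bp had a level of 1.95 RPM in the E23 forebrain (1.61 to 2.35) and, from E42 to E115, 60, 21, 25, 23 and 24 reads, or 2.25, 0.981, 0.939, 0.474 and 0.445 RPM. It was highest at E23 and E42, whose intervals overlap, and the E115 cortex had 0.227 times the level of the E23 forebrain (0.140 to 0.355). It was the only 1 of the 9 zinc finger circRNAs with at least 50 reads whose level at E60 was below that at E23 by more than counting error, at 0.502 times (0.299 to 0.804). The ZCCHC6 circRNA of 1185 bp (chr10:33080414-33081598, plus strand) had 30, 49, 50, 12, 7 and 11 reads, or 0.510, 1.84, 2.34, 0.451, 0.144 and 0.204 RPM. It was highest at E42 and E60, and the E115 cortex had 0.0873 times the level of the E60 cortex (0.0410 to 0.170).

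Among the CCCH-finger hosts, ZC3H6 had the sharpest peak. Its 18126-bp circRNA (chr3:45698129-45716254, minus strand) had 29, 58, 16, 4, 10 and 3 reads, or 0.493, 2.17, 0.747, 0.1502, 0.206 and 0.0556 RPM. E42 was 4.41 times E23 (2.78 to 7.14), and E80 was 0.0691 times E42 (0.0182 to 0.187). The ratio of E42 to the mean of the other stages, 6.58, was the highest that any zinc finger circRNA with at least 30 reads had at any stage of the cortex table. Its 15010-bp circRNA had 4, 6, 10, 2, 1 and 2 reads. The 3305-bp circRNA of ZC3H15, a protein that binds the GTPase DRG1, had 4, 7, 5, 2, 2 and 2 reads, and the 30931-bp circRNA of ZC3H14 had 3, 3, 4, 1, 7 and 2, too few to order the stages.

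The other ZNF circRNAs with at least 20 reads were smaller. The ZNF827 circRNA of 4657 bp (chr8:88019043-88023699, plus strand) had 11, 17, 16, 4, 7 and 8 reads and was highest at E42 and E60, at 0.637 and 0.747 RPM. The ZNF566 circRNA of 1720 bp (chr6:41369771-41371490, plus strand) had 0, 10, 4, 7, 18 and 11 reads. No read of it was seen in the E23 forebrain, where 3 reads would be 0.0510 RPM, and the E42 and E100 levels were 0.375 and 0.371 RPM. The 96060-bp ZNF283 circRNA had 15, 14, 3, 10, 12 and 12 reads, and the 4355-bp ZNF106 circRNA had 5, 7, 1, 5, 4 and 5. Both had their lowest level at E60, on 3 and 1 reads. The ratio of E60 over E42 was 0.267 (0.0492 to 0.957) for ZNF283 and 0.178 (0.00395 to 1.39) for ZNF106. For E60 over E23 both intervals included 1, so these reads do not set E60 apart from all other stages.

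**Figure D2:**
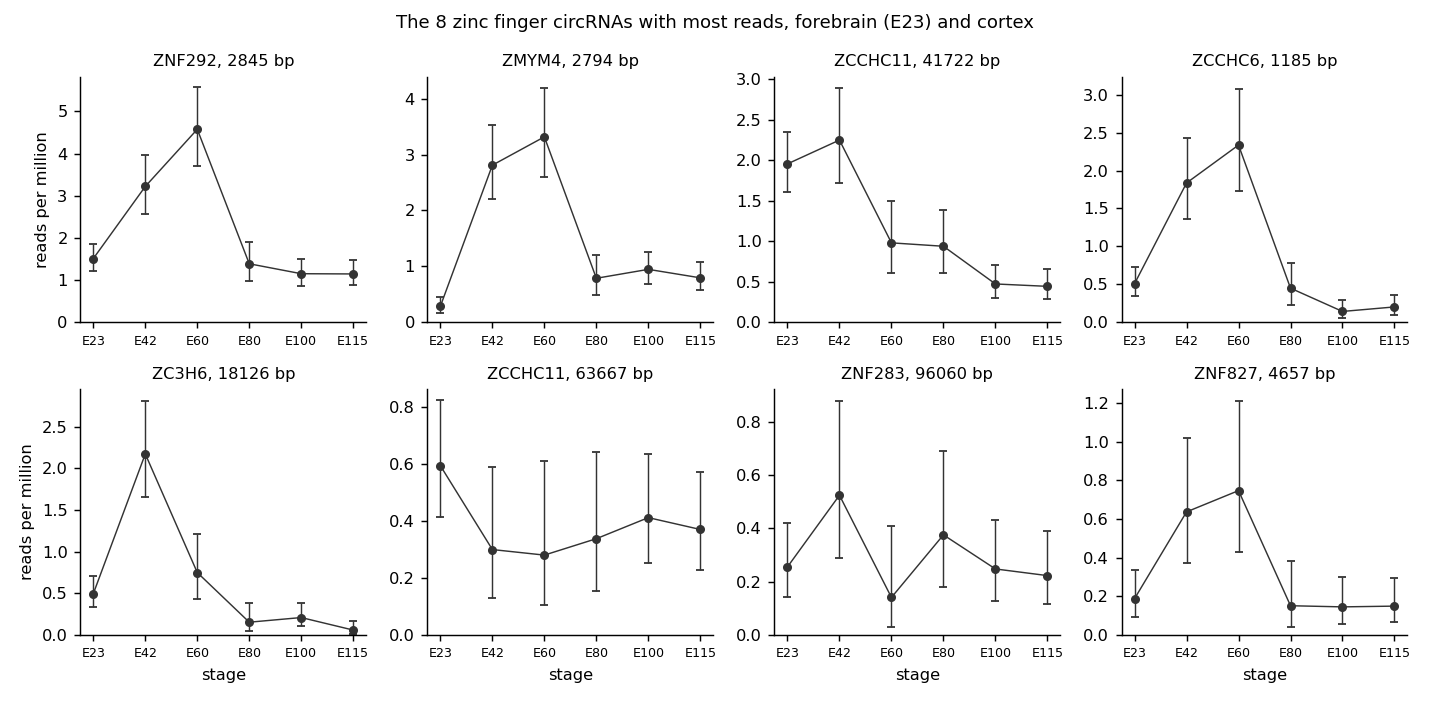
Levels (backsplice reads per M library reads, with exact Poisson intervals) of the zinc finger circRNAs with most reads in 6 libraries ordered by embryonic day. ZNF292 is highest at E60, ZMYM4 and ZCCHC6 at E42 and E60 (overlapping intervals) and ZC3H6 at E42. For the 41722-bp ZCCHC11 circRNA the intervals at E23 (1.95 RPM) and E42 (2.25 RPM) overlap.

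The highest level of the 15 zinc finger circRNAs with at least 20 reads fell at E23 in 1 (ZCCHC11, 63667 bp), at E42 in 7 and at E60 in 7. No stage from E80 on was the highest for any of the 15. For all 803 circRNAs with as many reads the share with the highest level at E23 was 6.72%, at E42 29.8%, at E60 52.2%, and 3.61%, 4.23% and 3.49% at E80, E100 and E115.

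A linear trend over embryonic day was tested with edgeR's quasi-likelihood test on all 803 circRNAs, with Benjamini-Hochberg adjustment over all of them. It called 3 circRNAs (0.374%; 0.125% higher and 0.249% lower with day), and 0 of the 15 zinc finger circRNAs, of which 4 had an unadjusted p under 0.05. DESeq2 and edgeR with TMM scaling, which called 6.1% and 5.11% of all circRNAs, also called 0 of the 15. The 4 were ZC3H6 of 18126 bp (log2 change over the span from E23 to E115 of -4.50, SE 1.47, edgeR adjusted p = 0.263), ZCCHC11 of 41722 bp (-2.49, SE 1.01, edgeR adjusted p = 0.439), and ZCCHC6 of 1185 bp (-3.54, SE 1.58) and ZMYM4 of 9514 bp (-3.95, SE 1.85), each with an edgeR adjusted p = 0.451. The median log2 change was -1.46 for the 15 and -1.47 for all 803. It was -0.10 and -0.19 under TMM scaling, which removes most of the common decline.

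The outcome of that test turned on the E23 forebrain. Over the 5 cortex stages alone, edgeR called 178 of 651 circRNAs (27.3%), 172 of them lower with day (26.4%), and 5 of 11 zinc finger circRNAs, all lower with day. Log2 changes of this fit are still given per 92 days, a longer span than E42 to E115. They are therefore larger in size than the change fitted over these stages. The median log2 change per 92 days was -2.78 for the 11 and -2.72 for all 651. The 5 called by edgeR were the circRNAs of ZC3H6 (18126 bp; log2 change per 92 days -6.01, adjusted p = 0.00237), ZCCHC6 (-5.24, adjusted p = 0.00616), ZCCHC11 (41722 bp; -2.88, adjusted p = 0.0301), ZMYM4 (2794 bp; -2.78, adjusted p = 0.0368) and ZNF292 (2845 bp; -2.59, adjusted p = 0.0464). Over all 6 stages the trends of the last 2 were -1.17 and -1.46, but 0.88 and 0.013 under DESeq2, with adjusted p above the threshold in each fit. Without the E60 cortex, 26 of 619 circRNAs were called (4.2%), and ZC3H6 was the 1 called of 11 zinc finger circRNAs (-4.38, edgeR adjusted p = 0.0428).

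Within some hosts the mix of circRNAs differed between stages. At ZCCHC11 the 63667-bp circRNA had 35, 8, 6, 9, 20 and 20 reads from E23 to E115 beside those of the 41722-bp circRNA. It was 23.3% of the reads of the pair at E23 (16.8% to 30.9%), 11.8% at E42 (5.22% to 21.9%), and 22.2% at E60 and 26.5% at E80. It was 46.5% in the E100 cortex (31.2% to 62.3%) and 45.5% in the E115 cortex (30.4% to 61.2%). The intervals at E100 and E115 lie above that of E42. The level of the longer circRNA was nearly flat from E42 on, between 0.280 and 0.412 RPM, while that of the shorter was 0.445 RPM at E115, against 2.25 RPM at E42.

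At ZMYM4 the 9514-bp circRNA had 12, 7, 6, 2, 1 and 1 reads. It was 41.4% of the reads of this circRNA and the 2794-bp circRNA at E23 (23.5% to 61.1%), and 8.54%, 7.79%, 8.70%, 2.13% and 2.27% at the later stages. The interval at E23 lies above those of E42, E60, E100 and E115 and overlaps that of E80, which rests on 23 reads. At ZC3H6 the 15010-bp circRNA was 38.5% of the pair at E60 (20.2% to 59.4%) and 9.38% at E42 (3.52% to 19.3%), intervals that also do not overlap. The pairs at ZMYM4 and ZC3H6 rest on 29 and 33 reads at E23, and a trend of these shares over day was not tested.

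**Figure D3:**
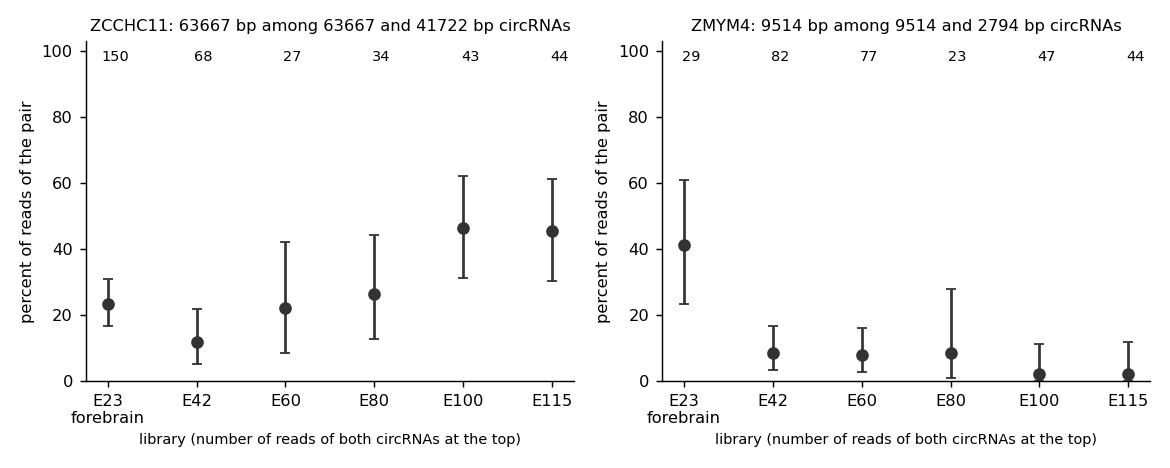
Share (percent) of the less abundant circRNA among the reads of the 2 main circRNAs of ZCCHC11 and ZMYM4, with exact Clopper-Pearson intervals, in 6 libraries ordered by embryonic day. The 63667-bp ZCCHC11 circRNA has 46.5% and 45.5% at E100 and E115, and the 9514-bp ZMYM4 circRNA has 41.4% at E23.

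Host gene expression was deposited as FPKM (fragments per kilobase of transcript per M fragments), which in libraries depleted of ribosomal RNA can include reads from the circles themselves. The median FPKM of the 36 zinc finger hosts was 11.9, 16.2, 10.5, 9.95, 10.18 and 9.14 from E23 to E115, against 14.8, 18.4, 12.1, 12.7, 14.3 and 12.4 for all hosts. E42 was the highest stage for 25 of the 36 hosts (69.4%), against 37.6% of all hosts. ZCCHC11 had the highest mean, with 95.5, 87.2, 59.3, 56.4, 24.4 and 29.4 FPKM, and was highest at E23. ZMYM4 had 20.8, 66.9, 77.5, 24.6, 25.6 and 20.6 FPKM and was highest at E60. ZC3H14 had 46.5, 49.4, 25.3, 20.3, 15.5 and 13.3 FPKM. ZNF75D had 36.8, 48.5, 22.1, 19.8, 18.7 and 13.3 FPKM, so both of these hosts were highest at E42 and lowest at E115. ZC3H15 had 21.005, 26.01, 17.7, 17.9, 26.4 and 24.1 FPKM, with its lowest values at E60 and E80.

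A linear trend in log2(FPKM + 1) was tested with limma on 2242 hosts, of which 550 passed an adjusted p of 0.05 (24.5%), 9.9% higher and 14.6% lower with day. Of the 36 zinc finger hosts 7 passed (19.4%), all of them lower with day, close to the share of all hosts. ZC3H14 fell by 1.94 on the log2(FPKM + 1) scale over the span (SE 0.39, limma adjusted p = 0.00974) and ZCCHC11 fell by 1.95 (SE 0.44, limma adjusted p = 0.0145). ZNF333 fell by 1.66 (limma adjusted p = 0.0169), ZNF618 by 2.31 (0.0177) and ZNF75D by 1.56 (0.0307). ZNF280C fell by 1.24 (limma adjusted p = 0.0457) and ZNF410, known in human and mouse cells as an activator of CHD4, by 1.19 (0.0473). ZNF618 had 9.46, 5.27, 2.42, 2.50, 2.88 and 0.382 FPKM from E23 to E115, and ZNF333 had 7.85, 8.07, 5.30, 4.55, 2.87 and 1.94, so both had their lowest value at E115. Without the E115 cortex 0 of the 36 hosts passed (6 had an unadjusted limma p under 0.05), beside 199 of all 2242 (8.88%), and without the E100 cortex 2 did (ZC3H14 and ZNF618), beside 232 of 2244 (10.3%). The median change was -0.64 for the 36 and -0.41 for all hosts.

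The circRNA output per host FPKM differed between hosts, on a background that also changed with stage. All circRNAs together had 284, 643, 810, 304, 271 and 216 RPM from E23 to E115. The median FPKM of all hosts was lowest at E60, at 12.1. A high output at E60 therefore cannot be read as particular to the hosts below. The output is given as backsplice reads of all circRNAs of a host per 1e9 library reads, divided by FPKM, and it compares a junction count with a level per length, so it serves to compare stages within a host. For ZCCHC11 it was nearly constant, at 27.05, 31.8, 25.2, 25.3, 36.4 and 27.7 from E23 to E115. Its summed circRNA level was 0.815 RPM in the E115 cortex and 2.58 RPM in the E23 forebrain, beside 29.4 and 95.5 FPKM of the host in the same libraries. For ZMYM4 it was 29.5 at E23 and between 41.2 and 52.1 later. For ZCCHC6 it was 31.3, 182, 317, 59.5, 15.6 and 26.8. The host FPKM of ZCCHC6 was 16.3, 10.5, 7.65, 7.58, 9.24 and 7.59, so its circRNA was highest at stages where the host was not. The E115 cortex had 0.992 times the ZCCHC6 FPKM of the E60 cortex beside 0.0873 times the level of its 1185-bp circRNA, against 0.267 for all circRNAs.

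ZNF292 and ZC3H6 lay between these cases. The output per FPKM of ZNF292 was 82.7, 96.6, 239, 72.3, 92.2 and 90.4, so E60 stood above all other stages, which were alike. That of ZC3H6 was 47.4, 82.8, 93.8, 20.2, 17.7 and 7.999, and that of ZNF827 was 51.0, 102, 151, 113, 52.5 and 45.5. For the 18126-bp ZC3H6 circRNA E80 had 0.0691 times the level of E42, while the host FPKM was 11.1 at E80 and 28.97 at E42, a ratio of 0.385. The values per FPKM carry the counting error of the backsplice reads, which for ZC3H6 is large after E60.

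**Figure D4:**
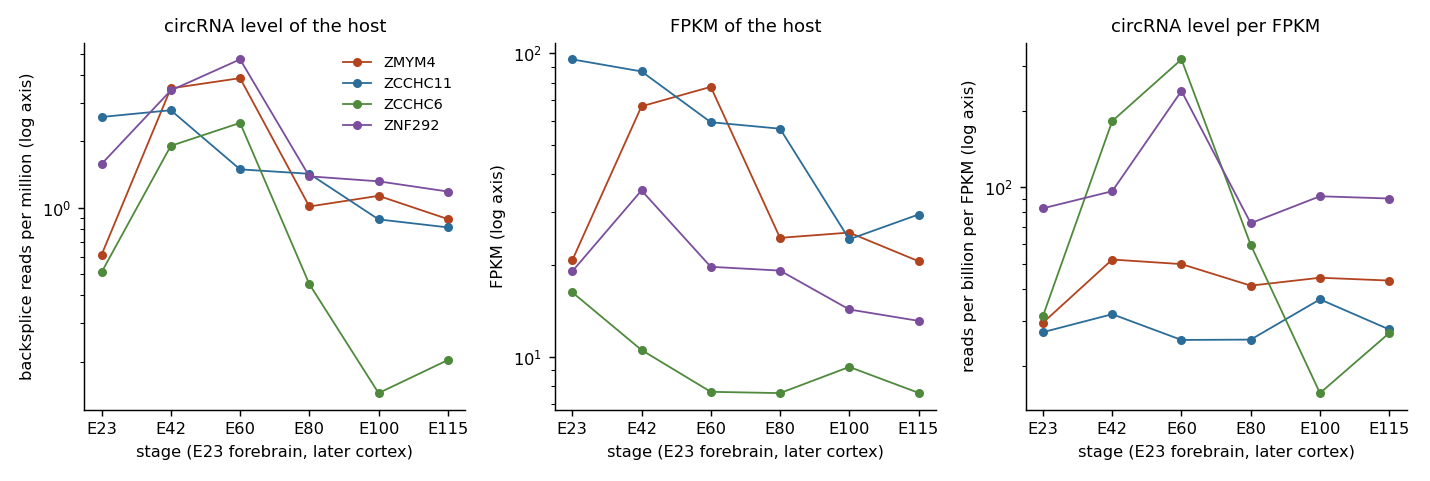
Backsplice reads of a host's circRNAs per 1e9 library reads divided by host FPKM, in 6 libraries ordered by embryonic day, for the zinc finger hosts with most circRNA reads. The ZCCHC11 line stays between 25.2 and 36.4, whereas ZCCHC6 reaches 317 at E60 and is 15.6 at E100.

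In the 5 regions the zinc finger level at E115 relative to E60 went in different directions. The cerebellum had 9.17 RPM at E115 (7.73 to 10.8) and 3.40 at E60 (2.37 to 4.73), a ratio of 2.69 (1.85 to 4.02), against 2.54 for all circRNAs. The hippocampus had 3.32 RPM at E115 (2.35 to 4.56) and 1.35 at E60 (0.944 to 1.87), a ratio of 2.46 (1.52 to 3.996), against 2.05 for all. The cortex had 2.57 RPM at E115 and 11.8 at E60, a ratio of 0.218 (0.176 to 0.269), against 0.217 for all. The basal ganglia had 1.96 RPM at E115 and 2.58 at E60, a ratio of 0.760 whose interval (0.399 to 1.42) includes 1. The brain stem had 58 reads at E115 (1.54 RPM) and 1 read at E60 (0.0757 RPM), a ratio of 20.4 with a wide interval (3.51 to 818). With these lines the interval held the ratio of all circRNAs in 4 of the 5 regions. The brain stem was the exception, at 3.39 for all circRNAs. With the ZNF292 line the intervals held it in only 2 of the 5, the cortex and the basal ganglia.

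The left-out ZNF292 line changed these values in some libraries. With it, the E60 brain stem had 38 zinc finger reads in place of 1, of which ZNF292 gave 37, and the brain stem ratio of E115 over E60 was 0.785 (0.530 to 1.18), against 2.32 for all circRNAs with all lines. The hippocampus ratio was then 5.38 (3.86 to 7.60), against 2.33 for all, since the line lists 82 reads at E115 and 16 at E60 there, and the cerebellum ratio was 1.62 (1.20 to 2.22), against 2.30 for all, with 7 ZNF292 reads at E115 and 26 at E60. In the basal ganglia the line lists 0 reads at E115 and 9 at E60. Because its cortex reads differ between the tables, no level of this circRNA outside the cortex is taken as measured.

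As a share of circRNA reads, zinc finger circRNAs held 2.38% in the E115 cerebellum (2.01% to 2.79%) and 2.24% in the E60 cerebellum, 2.20% and 1.83% in the E115 and E60 hippocampus, 1.73% and 1.72% in the E115 and E60 cortex, 1.57% and 1.42% in the E115 and E60 basal ganglia, and 1.16% (0.881% to 1.496%) and 0.193% in the E115 and E60 brain stem. The E115 cerebellum interval lies above that of the E115 brain stem. All circRNA reads of the E60 brain stem were 518, so its share allows up to 1.07% with these lines. With the ZNF292 line the E60 brain stem had 4.70% (3.35% to 6.40%) and the E115 hippocampus 5.34% (4.45% to 6.35%), above the 2.33% of the E115 cerebellum, so the order of the regions turns on that line.

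**Figure D5:**
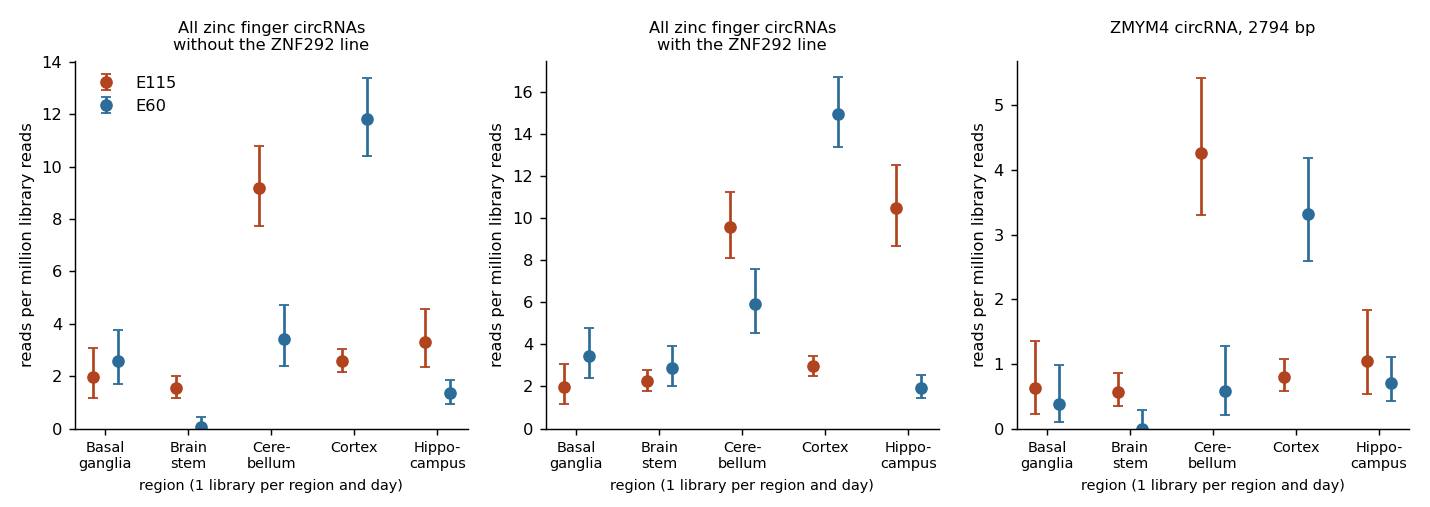
Levels at E115 (left in each pair) and E60 (right) in 5 regions, in backsplice reads per M library reads with exact Poisson intervals, for all zinc finger circRNAs without the ZNF292 line whose reads did not add up, for all with it, and for the 2794-bp ZMYM4 circRNA. The brain stem and hippocampus values move with that line, and ZMYM4 is highest in the E115 cerebellum at 4.27 RPM.

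ZMYM4 led the zinc finger circRNAs of the E115 cerebellum. Its 2794-bp circRNA had 67 reads in the E115 cerebellum and 6 in the E60 cerebellum, 43 and 71 in the E115 and E60 cortex, 12 and 19 in the E115 and E60 hippocampus, 21 and 0 in the E115 and E60 brain stem, and 6 and 4 in the E115 and E60 basal ganglia. The E115 cerebellum level of 4.27 RPM (3.31 to 5.42) was 7.31 times that of the E60 cerebellum (3.19 to 20.6), while in the cortex the ratio was 0.240 (0.161 to 0.356). The intervals of these 2 ratios lie on opposite sides of 1. Host FPKM was 88.3 in the E115 cerebellum and 35.7 in the E60 cerebellum, a ratio of 2.47, and the E115 cerebellum had the highest ZMYM4 value of the 10 FPKM columns. This circRNA accounts for 67 of the 144 zinc finger reads of the E115 cerebellum, and without it the cerebellum ratio was 1.74 (1.12 to 2.77).

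The ZCCHC11 circRNA of 41722 bp was spread more evenly. It had 20 and 12 reads in the E115 and E60 cerebellum, 24 and 21 in the E115 and E60 cortex, 11 and 4 in the E115 and E60 hippocampus, 17 and 0 in the E115 and E60 brain stem, and 7 and 7 in the E115 and E60 basal ganglia. Its highest levels were in the cerebellum, 1.27 RPM at E115 and 1.17 at E60. In the hippocampus the E115 level was 6.41 times that at E60 (1.90 to 27.6), on 11 and 4 reads. The 63667-bp circRNA of the gene was 45.5% of the pair in the E115 cortex (20 of 44 reads), 20% in the E115 cerebellum (5 of 25), 15% in the E115 brain stem (3 of 20) and 8.33% in the E115 hippocampus (1 of 12). All of these intervals overlap that of the E115 cortex.

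Some other zinc finger circRNAs had most of their reads in the cortex. The E115 and E60 cortex libraries held 52.3% of the zinc finger reads of the regions table, close to the 53.2% of all circRNA reads. These are raw reads, not corrected for depth, and the E115 cortex library was the largest of the 10, at 54.0 M reads. The cortex share was 45.8% for the 2794-bp ZMYM4 circRNA and 36.6% for the 41722-bp ZCCHC11 circRNA. The share was 92.3% for the ZNF827 circRNA (24 of 26 reads, interval 74.9% to 99.1%), with 8 reads in the E115 cortex and 16 in the E60 cortex, 1 in the E115 cerebellum and 1 in the E60 hippocampus. It was 67.8% for ZCCHC6 (61 of 90 reads, 57.1% to 77.2%), whose level was 0.204 RPM in the E115 cortex and 2.34 in the E60 cortex, and no more than 0.573 RPM in any other library. For the 18126-bp ZC3H6 circRNA it was 70.4% (19 of 27 reads, 49.8% to 86.2%), an interval that includes the 53.2% of all circRNAs. All 10 reads of the 4871-bp ZMYND8 circRNA (chr17:55235758-55240628, plus strand) were cortical, 2 at E115 and 8 at E60.

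A few had most reads elsewhere. The 889-bp circRNA of ZBTB10, a BTB-domain transcription factor, had 8 of its 18 reads in the cerebellum, 5 at E115 and 3 at E60, against 2 and 4 in the E115 and E60 cortex. Of the less abundant circRNAs, those of ZC3H14 of 30931 bp and 20171 bp had 10 and 9 reads, that of ZMYM4 of 4319 bp 9, and that of ZKSCAN1 (915 bp) 8, too few to order the regions. No zinc finger circRNA had at least 2 reads in all 10 libraries, against 0.662% of all circRNAs.

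With edgeR's quasi-likelihood test on 387 circRNAs with at least 20 reads, the day effect (E115 against E60, region as a block) called 0 (0%), with 4 at an unadjusted p under 0.05, and TMM scaling and DESeq2 called 2 and 1. Of the 6 zinc finger circRNAs tested, 0 were called by any of the 3 tools, and 0 had an unadjusted p under 0.05. The joint test of regions also called 0 of 387 (0%), with 19 at an unadjusted p under 0.05, and TMM scaling and DESeq2 called 0 as well (16 and 4 at an unadjusted p under 0.05). The contrast of cortex against the other regions called 2 (0.517%), both higher in cortex, and 0 of the 6. The ZNF827 circRNA had the lowest p of the 6 there, with a log2 difference of 4.68 (SE 1.63, edgeR adjusted p = 0.129). It passed the filter of 20 reads only through its cortex reads, 24 of 26. The same holds for ZC3H6 (18126 bp, 19 of 27, of which 16 at E60) and ZCCHC11 (63667 bp, 26 of 38). For these circRNAs the filter itself favours a higher cortex level in this contrast, with or without the E115 cortex. How much of their difference it accounts for was not tested. Without the E115 cortex that contrast called 89 of 307 circRNAs (29%) and 3 of 4 zinc finger circRNAs, those of ZMYM4 (2794 bp; log2 difference 3.27), ZCCHC6 (4.06) and ZC3H6 (6.10). It then compares the E60 cortex alone, and the joint test called ZMYM4 (edgeR adjusted p = 0.0386), against 8.47% of all.

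Host FPKM of the regions table was normalized separately, and its headings for cortex and hippocampus go against the cortex table. Over 1395 hosts, the E115 cortex values of the cortex table had a Pearson r of 0.970 with the column headed hippocampus E115 and of 0.685 with that headed cortex E115, on log2(FPKM + 1) across genes. For the E60 cortex the values were 0.959 with the column headed hippocampus E60 and 0.683 with that headed cortex E60. The backsplice reads show no such mismatch, since the cortex reads of the zinc finger lines that add up are the same in both tables. The headings are kept as deposited, and for these 2 regions no circRNA level is set beside host FPKM.

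Host FPKM in the regions table had its lowest values in the E60 brain stem. There the median zinc finger host had 2.85 FPKM, against 4.10 for all hosts, and in the other columns it was between 6.51 and 9.81. The highest means belonged to ZCCHC11, ZMYM4, ZNF280D, ZC3H14 and ZNF292. ZCCHC11 had 114 and 65.3 FPKM in the E115 and E60 cerebellum, 38.3 and 52.02 in the columns headed E115 and E60 cortex, 37.97 and 134 in those headed E115 and E60 hippocampus, 43.6 and 5.96 in the E115 and E60 brain stem, and 28.4 and 38.6 in the E115 and E60 basal ganglia, so its day difference had no common direction. ZNF280D was highest in the column headed E60 cortex at 61.8 FPKM, and ZC3H14 in that headed E60 hippocampus at 30.2.

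In limma on log2(FPKM + 1), 197 of 1730 hosts differed between days (11.4%), 9.83% higher and 1.56% lower at E115, and 1 of 25 zinc finger hosts did (4%). This was ZNF106, which was higher at E115 in 5 of 5 regions, with 10.9 and 6.89 FPKM in the E115 and E60 basal ganglia, 12.01 and 2.61 in the brain stem, 10.1 and 6.08 in the cerebellum, 13.5 and 7.70 in the columns headed cortex, and 11.2 and 4.48 in those headed hippocampus. Its log2(FPKM + 1) difference was 0.996 (SE 0.31, limma adjusted p = 0.0455). The call was lost with no filter on FPKM (limma adjusted p = 0.0815) and without any of the 10 libraries. Exchanging the headings of cortex and hippocampus would not alter this test, since both days of a region move together. ZNF423, a transcription factor needed for cerebellar development in mice, had 4.39 and 13.9 FPKM in the E115 and E60 cerebellum and 3.04 and 18.2 in the E115 and E60 basal ganglia, with a log2 difference over all regions of -0.98 (limma adjusted p = 0.0727). Without the 4 columns headed cortex and hippocampus, an alternative chosen after seeing the data, 219 of 1719 hosts were called (12.7%), ZNF106 was not (limma adjusted p = 0.114), and ZNF423 was the 1 called of 25 zinc finger hosts, lower at E115 (-1.38, limma adjusted p = 0.0233). The median difference over all regions was 0.10 for the 25 and 0.27 for all hosts.

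Related gene lists gave the setting. Of 19 zinc finger genes known as circRNA hosts in human or mouse, 9 had circRNAs among the zinc finger lines of the cortex table, with 24 circRNAs and 1452 reads. They were ZNF292, ZMYM4, ZCCHC11, ZCCHC6, ZNF827, ZMYND8, ZKSCAN1, ZC3H13, part of the m6A writer complex, and ZBTB44. ZKSCAN1 had 9 reads of a 915-bp circRNA (chr3:7183714-7184628, plus strand), ZC3H13 had 9 reads and ZBTB44 had 2. Of the 9 hosts tested for FPKM, 1 fell (ZCCHC11) and 0 rose, beside 14.6% and 9.9% of all hosts.

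Among 50 zinc finger genes with names outside the rule, 14 had circRNAs in the cortex table, with 33 circRNAs and 1209 reads. Of 13 hosts tested for FPKM 0 rose and 4 fell with day, ZEB1 (-3.25), ZFHX4 (-2.90), ZFAND6 (-1.73) and ZRANB1 (-1.39). Of 16 genes that act with KRAB zinc finger proteins, 7 had circRNAs in the cortex table, with 19 circRNAs and 1140 reads. Of 8 tested for FPKM 0 rose and 3 fell, the histone deacetylase gene HDAC2 (-2.55), the heterochromatin protein gene CBX1 (-1.99) and SMARCAD1 (-1.49), beside 14.6% of all hosts that fell.

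Of 35 cell type markers, 6 were hosts in the cortex table. SYT1, a synaptic vesicle gene of neurons, rose by 5.50 on the log2(FPKM + 1) scale (limma adjusted p = 0.00267) and FLT1, a vessel gene, by 2.36 (limma adjusted p = 0.0386). In the regions table DCX, a gene of young neurons, was lower and SLC1A3, a gene of radial glia and astrocytes, was higher at E115. PAX6 had its highest FPKM in the E115 and E60 cerebellum (54.5 and 67.2). These markers differed with stage and region beside the zinc finger values, and their part in them was not tested.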

How the data were processed

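Backsplice reads per library were deposited as whole counts in 2 tables, per the file headers, with RPM computed by the authors, FPKM of host genes computed by the authors, and genomic lengths. The submitters' processing notes name Trim Galore, TopHat2, Cufflinks, Cuffdiff and the build Sscrofa10.2 (susScr3). Neither tool versions nor the caller of circRNAs are named in the sources used here. Per the labels' protocols, Ribo-Zero removed ribosomal RNA and ScriptSeq v2 libraries were prepared from RNA above 200 nt. Whether libraries came from separate animals is not stated, so p-values measure the spread around a line over stages or between regions.

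The members and lists were chosen with earlier results of these data known. Groups came from the sample labels, and 0 value columns lacked a sample. Library totals were recovered as reads divided by RPM. Only lines whose library reads add up to the stated total were used. Circular RNAs with at least 20 reads were tested with edgeR 4.0.16 (quasi-likelihood, scaled by library totals) in R 4.3.3, and hosts with a mean FPKM of at least 1 with limma 3.58.1 on log2(FPKM + 1). Both used Benjamini-Hochberg adjustment over all features and a threshold of 0.05. The cortex trend was linear in day, over 92 days. The fits were also run on simulated data with more reads and less spread than these data and with large changes. That run does not measure their error or power here. Intervals (scipy 1.17.1) are 95% and reflect only counting error of reads without molecular identifiers, and a count of 0 allows up to 3 reads. Detection means at least 2 reads. Alternatives were TMM factors, DESeq2 1.42.0, all lines, read filters of 10 or none, a pseudocount of 0.1, no filter on FPKM, leaving out each library or the top circRNA and, chosen after seeing the data, leaving out 4 FPKM columns whose headings go against the other table.

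Named were the 15 and 12 zinc finger circRNAs with most reads in the cortex and regions tables, those with an adjusted p under 0.05, the 8 hosts with most circRNAs (ties listed), for each library the circRNA with at least 30 reads and the highest ratio to the other libraries, the genes of a list of known circRNA hosts, and the 5 hosts with the highest mean FPKM in each table with all hosts called. ZNF704, ZSCAN12 and ZNF423 were named after their values were seen. Of 41 hosts, 39 matched the RefSeq gene table.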

Additional observations from a re-analysis of the deposited data

Results flagged for a closer look

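The zinc finger level at E115 over E60 differed in direction between regions, with intervals of counting error on opposite sides of 1. It was 20.4 in the brain stem, 2.69 in the cerebellum and 2.46 in the hippocampus, and 0.218 in the cortex. All circRNAs together had ratios of 3.39, 2.54, 2.05 and 0.217 in the same order, so these directions were not particular to zinc finger circRNAs. The zinc finger ratio of the brain stem rests on 1 read at E60. With the ZNF292 line it turned round to 0.785 (0.530 to 1.18), while the cerebellum had 1.62 and the hippocampus 5.38. The 2794-bp ZMYM4 circRNA had ratios of 7.31 in the cerebellum and 0.240 in the cortex. With 1 library per region and day, these differences between regions were not tested.

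Some zinc finger reads stand outside the lines used. Zinc finger lines whose library reads did not add up held 77 reads in the cortex table and 293 in the regions table, all of these on the ZNF292 line. Lines that join a zinc finger name to another host name held 152 reads in the cortex table (9 lines) and 135 in the regions table (14 lines). Lines that give a gene ID for a gene whose symbol falls under the rule held 24 reads in the cortex table and 4 in the regions table. Each is more than the 3 reads that a count of 0 allows.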

How the results depend on the processing

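The number of zinc finger circRNAs called in the cortex trend was the same under TMM factors, DESeq2, all lines and other read filters, and was between 0 and 5 with 1 library left out. For the region tests no count is given, as leaving out a library leaves 1 library for its region. For the trend of host FPKM the number of hosts called was between 0 and 10, and for the day effect on host FPKM between 0 and 1, and 0 with no filter on FPKM. It was 1 (ZNF423) without the 4 columns headed cortex and hippocampus. Where ZNF106 was not called without a library, the host called in 3 cases was ZNF423. The zinc finger share was 1.79% in the cortex table and 1.18% in the regions table without the circRNA with most reads, and 2.22% in the regions table with all lines. The log2 ratio of E115 over E60 with all lines was -0.35 in the brain stem, where it turned round from 4.35, 0.70 in the cerebellum and 2.43 in the hippocampus, against 1.43 and 1.30 with the lines that add up; without the top circRNA it was 0.80 in the cerebellum. The cause was the ZNF292 line for the values with all lines, as it is the only zinc finger line that they add.

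Scaling moved the trends of all circRNAs: the median log2 change of the 803 was -1.47 by library totals, -0.19 under TMM and -0.10 under DESeq2. The log2 change of the cortex trend was positive under TMM and DESeq2 for ZMYM4 of 2794 bp (0.74 and 0.88, against -1.17 by library totals), ZCCHC11 of 63667 bp (0.27 and 0.37), ZNF283 (0.46 and 0.57), ZNF106 (0.51 and 0.64), ZNF292 of 28372 bp (0.45 and 0.53) and ZC3H14 (0.92 and 1.03), and for ZNF292 of 2845 bp under DESeq2 (0.013, against -1.46). The day effect of ZCCHC6 in the regions was -0.025 under TMM. With 1 library left out the trend, still given per 92 days, ran from -0.53 to 0.58 for ZCCHC11 of 63667 bp, -1.10 to 0.066 for ZNF283, -0.36 to 4.17 for ZNF566, -1.53 to 0.29 for ZNF106 and -0.41 to 0.24 for ZNF292 of 28372 bp, and the day effect from -0.41 to 1.12 for ZCCHC6 and -0.50 to 2.62 for ZC3H6. None of these reversed values passed its test, and the cause of these reversals was not tested.

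Replicate numbers pair no libraries, as each group has 1, and the day effect took region as its block. Depth limits the small libraries most, since 1 read of the E115 basal ganglia is 0.103 RPM, and lines with few reads order neither stages nor regions. The E100 cortex had 0 reads in the 8 zinc finger lines left out.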
